A study of Schizosaccharomyces pombe with 12 samples.

Results

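A group of 289 non-coding RNAs of fission yeast (Schizosaccharomyces pombe) had at most 0.5 of their wild-type level in lsd1-ΔHMG cells, both at 30°C and at 37°C. They were picked from the 1535 rows of the count table whose systematic name begins with SPNCRNA, out of 7268 rows in all. The rule asked for a mean of at least 1 CPM (a row's count scaled by the library total, to a sum of 1000000 per library) in wild-type cells and for a ratio of lsd1-ΔHMG to wild-type of at most 0.5, at each temperature. The minimum left 1375 rows and the ratio left 290, of which SPNCRNA.1606 was then dropped because its mean in set1Δ cells at 30°C, 740 CPM, was at least 4 times that in wild-type cells, 166 CPM. The fall in lsd1-ΔHMG is therefore how the members were found and not a result, and it is given below as a description with no test.

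Non-coding RNAs of fission yeast are transcribed by RNA polymerase II like mRNAs, and many lie across from a protein-coding gene on the other DNA strand or start back to back with one. Many are kept low by the nuclear exosome, the complex that degrades RNA from its 3′ end in the nucleus, and by chromatin factors that hold back transcription from inside genes. Lsd1 and Lsd2 are histone demethylase homologs that sit with the zinc-finger proteins Phf1 and Phf2 at gene promoters, and Set1 is the sole histone H3 lysine 4 methyltransferase of this yeast.

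The tested strains were lsd1-ΔHMG, in which Lsd1 lacks its C-terminal HMG domain, a DNA-binding fold, and set1Δ, in which set1 is deleted, and both were compared with wild-type cells. Cells were grown at 30°C or shifted to 37°C for 2 hours, with 2 independently derived replicates for each of the 6 conditions and totals of 27642384 to 34843653 counts per library. In the study's methods lsd1-ΔHMG carries a C-terminal tag for purification, and whether the sequenced wild-type strain carried one was not given in the sources used here. RNA came from whole cultures, so fewer cells with an RNA and less of it per cell cannot be told apart. Levels below are CPM after TMM scaling, a method that centres most features between libraries. The 6904 features with enough counts, all 289 members among them, went into a quasi-likelihood fit of all 12 libraries in edgeR. A call needed a Benjamini-Hochberg adjusted p below 0.05 and a log2 fold change of 1 or more in either direction.

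The targeted gene set1 (SPCC306.04c) was at 14.4 and 14.3 CPM at 30°C and 15.7 and 16.2 CPM at 37°C in set1Δ cells, against 76.7 and 79.8 CPM at 30°C and 105 and 95.6 CPM at 37°C in wild-type cells. For lsd1 (SPBC146.09c), of which the lsd1-ΔHMG strain keeps most, the level was 52.4 and 47.9 CPM at 30°C and 33.4 and 31.2 CPM at 37°C in lsd1-ΔHMG cells, against 46.9 and 49.7 CPM at 30°C and 63.5 and 63.0 CPM at 37°C in wild-type cells. lsd2 (SPAC23E2.02) was at 70.2 and 65.3 CPM at 30°C and 134 and 131 CPM at 37°C in lsd1-ΔHMG, against 45.7 and 48.7 CPM and 60.0 and 55.6 CPM in wild-type cells. Replicates of a condition correlated at 0.993 or more in log2 CPM. The gene of the small heat shock protein Hsp16 (SPBC3E7.02c) was lower at 37°C than at 30°C in wild-type cells and higher in the other strains: it stood at 4533 and 5798 CPM at 37°C against 39422 and 36205 CPM at 30°C in wild-type, at 3968 and 5093 CPM against 2261 and 2179 CPM in lsd1-ΔHMG, and at 15391 and 19026 CPM against 830 and 727 CPM in set1Δ. A heat shock gene that is lower at 37°C puts the temperature labels of the wild-type libraries in doubt, and the sources used here do not settle them. The wild-type libraries are therefore given by their labels throughout, and every comparison with wild-type at a temperature, or between temperatures in wild-type, rests on those labels being right. The part of the hsp16 difference in the results below was not tested.

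Together the members took 0.412% and 0.433% of all counts in lsd1-ΔHMG at 30°C and 0.416% and 0.474% at 37°C. They took 0.827% and 0.858% in set1Δ at 30°C and 1.339% and 1.537% at 37°C, and 1.451% and 1.354% in wild-type at 30°C and 1.392% and 1.454% at 37°C. The median member was at 8.25 and 9.07 CPM in lsd1-ΔHMG at 30°C and at 9.30 and 10.8 CPM at 37°C. The set1Δ medians were 24.8 and 25.4 CPM at 30°C and 23.0 and 24.0 CPM at 37°C, and the wild-type medians 33.1 and 30.1 CPM at 30°C and 29.6 and 31.3 CPM at 37°C. For the 1086 other SPNCRNA rows past the minimum, the median over rows lay between 13.9 and 15.9 CPM in the lsd1-ΔHMG libraries, between 17.2 and 20.5 CPM in those of set1Δ and between 17.1 and 18.3 CPM in those of wild-type. The median of the members was thus above that of the other rows in wild-type and below it in lsd1-ΔHMG.

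**Figure D1:**
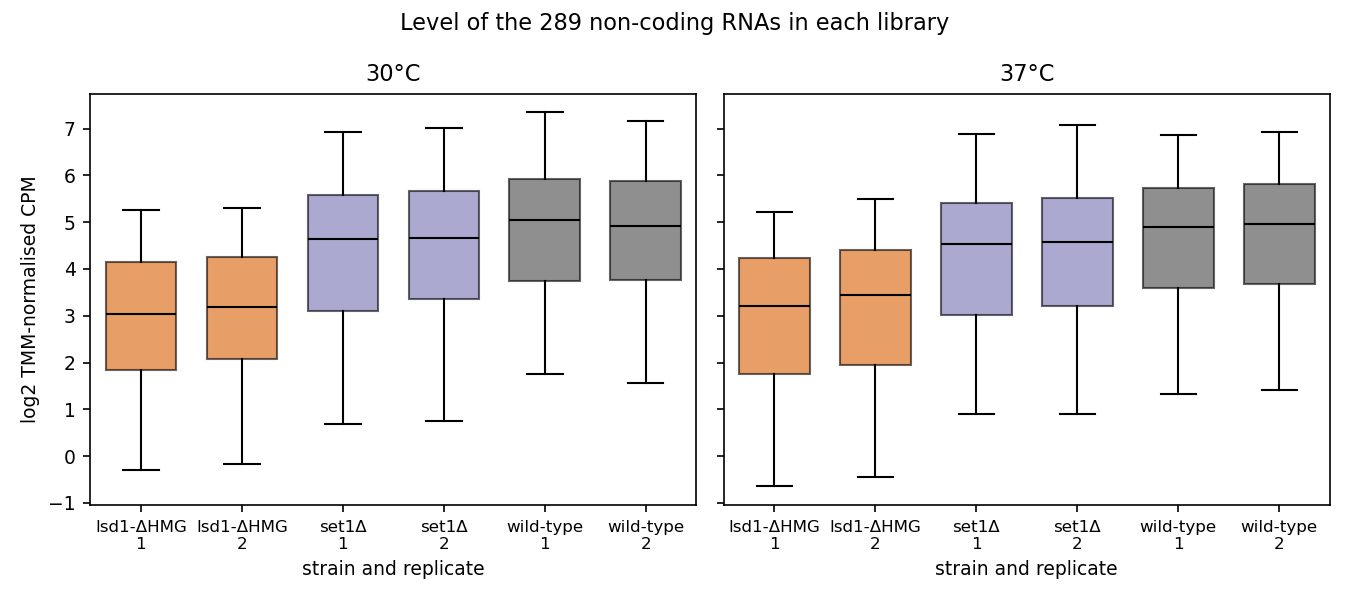
Level of the 289 members in each library, as log2 of TMM-normalised CPM, at 30°C (left) and 37°C (right) for lsd1-ΔHMG, set1Δ and wild-type. Boxes span the quartiles with the median as a line and whiskers reach the 5th and 95th percentiles over members. The lsd1-ΔHMG medians of 8.25 to 10.8 CPM lie below the set1Δ medians of 23.0 to 25.4 CPM and the wild-type medians of 29.6 to 33.1 CPM.

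At 30°C the ratio of lsd1-ΔHMG to wild-type in CPM of the library total ran from 0.035 to 0.499 with a median of 0.346, and at 37°C from 0.049 to 0.498 with a median of 0.326. The ratio was 0.25 or less in 73 members at 30°C, in 80 at 37°C and in 35 at both. Both lsd1-ΔHMG libraries were below both wild-type libraries in all 289 members at each temperature. The rule's limit on the ratio of means makes such a separation likely, and its share over all features was not counted. With TMM scaling the median log2 fold change was -1.62 at 30°C and -1.50 at 37°C, beside -0.11 and -0.06 over all features tested. The members called lower numbered 289 at 30°C, where 18.1% of all features were called lower, and 262 at 37°C, where 15.4% were, and the rule fixed the direction of both. Just inside the limit were SPNCRNA.959 with ratios of 0.4985 at 30°C and 0.4519 at 37°C, SPNCRNA.899 with 0.3926 and 0.4977, and SPNCRNA.268 with 0.4963 and 0.2987. Just outside were SPNCRNA.862 with 0.5003 and 0.2949, SPNCRNA.448 with 0.5007 and 0.4212, and SPNCRNA.1014 with 0.4391 and 0.501.

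The change in lsd1-ΔHMG moved with base composition, more so over protein-coding genes than among the members. Of the 289 members, 268 had a position in the RefSeq annotation of ASM294v3, and their median GC content was 33.1%, against 35.6% in the other SPNCRNA rows and 36.8% in protein-coding genes. Over the 5104 protein-coding genes tested, the log2 fold change of lsd1-ΔHMG rose with GC content (Pearson r across genes 0.491 at 30°C and 0.572 at 37°C, as a description, since genes share the libraries). Among the members themselves r was 0.103 at 30°C and 0.311 at 37°C. In the tenth of protein-coding genes with the lowest GC content (median 32.9%), the median log2 fold change was -0.57 at 30°C and -0.75 at 37°C. When each library's trend with GC content and length was taken out as an offset, 168 members stayed called lower at 30°C (median -1.15) and 120 of the 126 members called at 37°C (median -0.90) had been called without it. All 289 members kept a log2 fold change below 0 at 30°C and 266 did at 37°C. With the offsets, 16.4% of all features were called lower at 30°C and 15.4% at 37°C. Whether base composition as such plays a part in the fall was not tested.

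**Figure D2:**
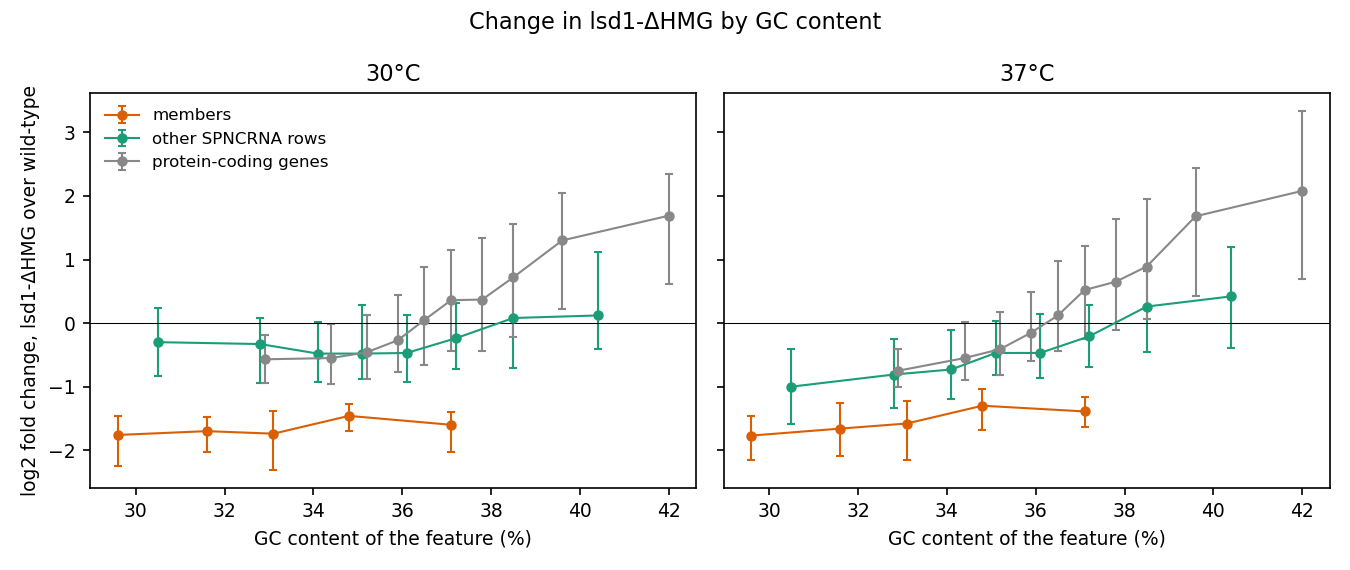
Log2 fold change of lsd1-ΔHMG over wild-type against GC content at 30°C (left) and 37°C (right), for members, other SPNCRNA rows and protein-coding genes divided into bins of equal size by GC content. Points are bin medians and bars span the quartiles. The members' bins, with medians from -1.77 to -1.30, lie below the other features of like GC content, as the rule requires, while protein-coding genes climb to 1.69 at 30°C and 2.08 at 37°C in the bin with the most GC.

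The members lay among genes in a mix of arrangements. Of the 268 with a position, 136 (50.7%) lay across from a protein-coding gene, on the opposite strand, against 67.0% of the other SPNCRNA rows with a position. A further 17 overlapped another feature on their own strand only, and 115 (42.9%, against 22.8%) overlapped neither. The start of 67 members (25%, against 14.1%) was within 500 bases of the start of a coding gene running the other way, which makes them divergent RNAs. Rows across from a coding gene were left out of this search but kept in the base of both percentages, and fewer members were of that kind. The search covered the other 17 and 115 members, against 105 and 233 other rows, of which 144 were divergent. The median length was 922 bases, against 1225 bases in the other rows, and 102, 100 and 66 members were on chromosomes I, II and III. These shares are descriptions of the annotation, with no test. The median fall was much alike in the antisense members (-1.60 at 30°C and -1.41 at 37°C) and in those with no overlap (-1.74 and -1.71). In 15 pairs of neighbouring members the levels moved as one over the 12 libraries (r of at least 0.99), among them SPNCRNA.540 with SPNCRNA.1541 and SPNCRNA.549 with SPNCRNA.1256, and such pairs may share reads and count a single RNA more than once.

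The member with the most reads in wild-type, also after division by length, was SPNCRNA.130, named omt3. It is a long non-coding RNA that stays at its own gene during meiosis and, with RNA-binding Smp proteins, helps homologous chromosomes pair. omt3 was at 254 and 261 CPM in lsd1-ΔHMG against 1230 and 1063 CPM in wild-type at 30°C, and at 62.9 and 93.7 CPM in lsd1-ΔHMG against 393 and 448 CPM in wild-type at 37°C. The log2 fold changes were -2.15 (SE 0.16) at 30°C and -2.43 (SE 0.16) at 37°C. In set1Δ omt3 stood at 556 and 537 CPM at 30°C and at 2423 and 2851 CPM at 37°C. The set1Δ libraries were thus below wild-type at 30°C and above every other library at 37°C, without overlap. The log2 fold change of set1Δ at 37°C was 2.65 (SE 0.16, adjusted p = 9.2e-09, edgeR). Without omt3 the members summed to 10338 and 11391 CPM in set1Δ at 37°C against 11417 and 12150 CPM in wild-type, and with it to 12761 and 14242 CPM against 11810 and 12599 CPM.

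Next by reads came SPNCRNA.1351, which lies across from mug2. It was at 99.8 and 84.9 CPM in lsd1-ΔHMG against 310 and 288 CPM in wild-type at 30°C, and at 76.8 and 94.9 CPM against 332 and 334 CPM at 37°C. In set1Δ it was at 68.9 and 71.8 CPM at 30°C, lower than in lsd1-ΔHMG, and at 192 and 211 CPM at 37°C, midway between the other strains. SPNCRNA.304, across from SPBC1271.05c, had 171 and 165 CPM in lsd1-ΔHMG against 386 and 345 CPM in wild-type at 30°C and 106 and 114 CPM against 247 and 254 CPM at 37°C. Its fall at 30°C was close to the smallest of the group, with log2 fold changes of -1.12 (SE 0.081) and -1.19 (SE 0.082). The intergenic SPNCRNA.975 was at 105 and 91.1 CPM in lsd1-ΔHMG against 258 and 229 CPM in wild-type at 30°C, and at 66.5 and 71.8 CPM against 131 and 137 CPM at 37°C. In set1Δ it was at 242 and 243 CPM at 30°C and 141 and 163 CPM at 37°C, close to wild-type (log2 fold change 0.18 at 37°C, SE 0.093, adjusted p = 0.098, edgeR). SPNCRNA.934, also intergenic, had 64.9 and 63.2 CPM in lsd1-ΔHMG against 195 and 183 CPM in wild-type at 30°C and 37.1 and 37.7 CPM against 174 and 173 CPM at 37°C.

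SPNCRNA.846 lies across from cig2, the gene of a cyclin for the start of DNA replication. It was at 13.1 and 10.9 CPM in lsd1-ΔHMG against 67.9 and 58.4 CPM in wild-type at 30°C, and at 46.7 and 50.8 CPM against 233 and 245 CPM at 37°C. In set1Δ it was at 32.1 and 31.0 CPM at 30°C and at 200 and 234 CPM at 37°C. The RNA was higher at 37°C in every strain, and the gap between lsd1-ΔHMG and wild-type kept nearly the same size, with log2 fold changes of -2.39 (SE 0.12) and -2.29 (SE 0.11). SPNCRNA.607, across from pfl8, a gene of the flocculin family of cell-surface adhesins, showed the other course. It was at 36.2 and 37.7 CPM in lsd1-ΔHMG against 261 and 229 CPM in wild-type at 30°C, and at 16.5 and 21.5 CPM against 50 and 52.1 CPM at 37°C. SPNCRNA.1358 overlaps eca39 and pho4 on the other strand, genes of a branched-chain amino acid aminotransferase and an acid phosphatase. It had 41.2 and 43.3 CPM in lsd1-ΔHMG against 133 and 129 CPM in wild-type at 30°C and 43.8 and 48.0 CPM against 153 and 160 CPM at 37°C.

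**Figure D3:**
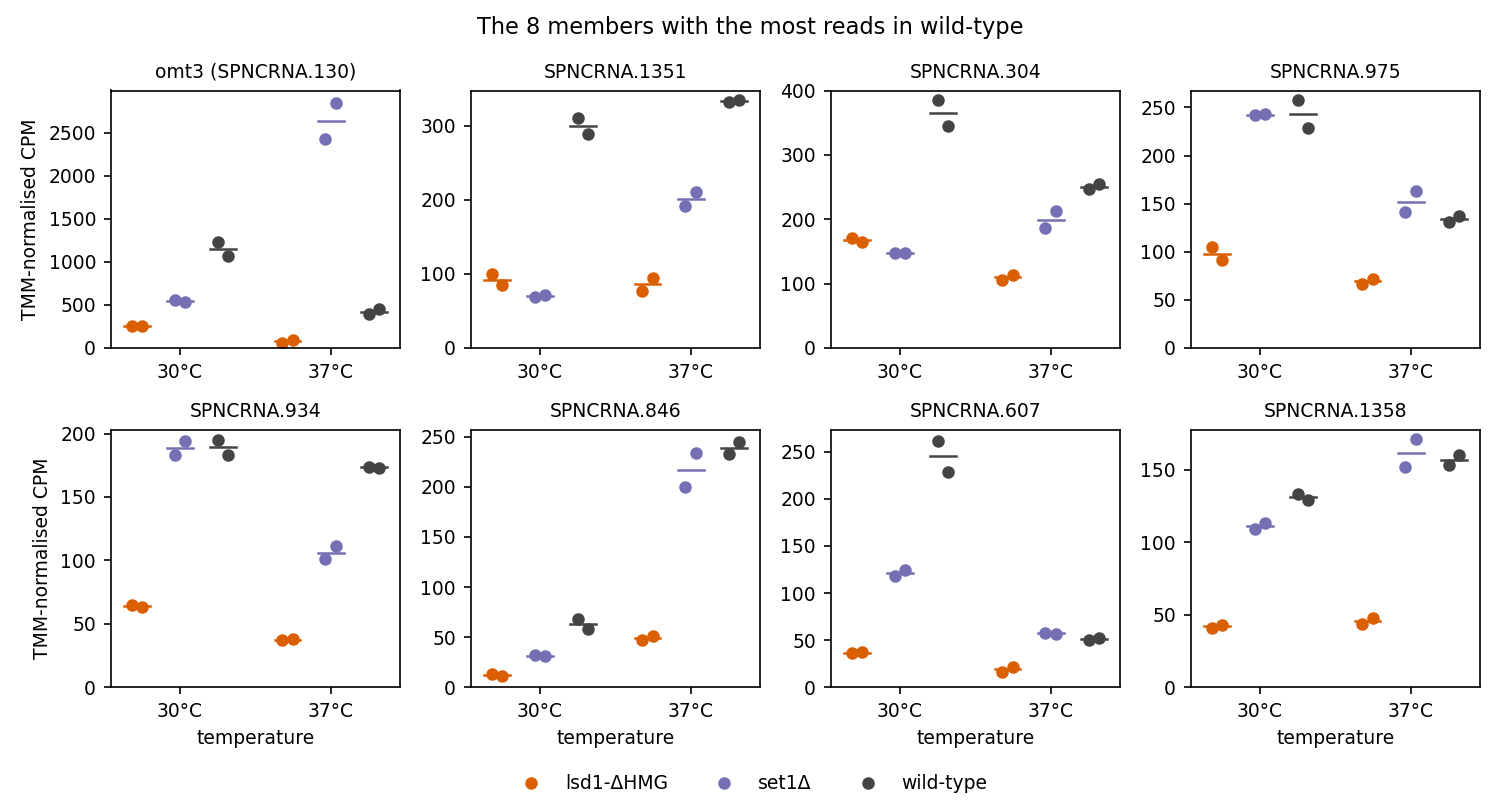
Levels of the 8 members with the most reads in wild-type, in TMM-normalised CPM on a linear axis from 0, at 30°C and 37°C. Each point is a library of lsd1-ΔHMG, set1Δ or wild-type (left to right at each temperature) and the line is the mean of 2. omt3 in set1Δ at 37°C, at 2423 and 2851 CPM, is above every other library, while SPNCRNA.846 is higher at 37°C in all 3 strains.

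The steepest falls over both temperatures, among members with at least 50 counts on average in wild-type, were in SPNCRNA.540, SPNCRNA.1541, SPNCRNA.291, SPNCRNA.377, SPNCRNA.1256 and SPNCRNA.549. SPNCRNA.540 was at 4.69 and 6.02 CPM in lsd1-ΔHMG against 174 and 155 CPM in wild-type at 30°C, a log2 fold change of -4.95 (SE 0.20), and at 5.76 and 8.54 CPM against 42.5 and 54.2 CPM at 37°C. It was as low in set1Δ at 30°C, at 6.19 and 6.56 CPM, and then at 127 and 156 CPM in set1Δ at 37°C, above wild-type. SPNCRNA.291 was at 5.80 and 6.29 CPM in lsd1-ΔHMG against 82.2 and 83.7 CPM in wild-type at 30°C, and at 9.11 and 13.8 CPM against 139 and 142 CPM at 37°C. Unlike SPNCRNA.540 it was above wild-type in set1Δ at 30°C, at 170 and 188 CPM, and below it at 37°C, at 64.7 and 79.7 CPM. SPNCRNA.377 rests on few reads: it was at 0.321 and 0.0662 CPM in lsd1-ΔHMG against 1.79 and 2.29 CPM in wild-type at 30°C, and at 0.213 and 0.219 CPM against 4.43 and 3.65 CPM at 37°C. SPNCRNA.549 was at 0.962 and 1.06 CPM in lsd1-ΔHMG against 29.9 and 27.3 CPM in wild-type at 30°C, but at 1.07 and 1.15 CPM against 4.48 and 3.96 CPM at 37°C. The lsd1-ΔHMG values of SPNCRNA.549 were nearly level over the temperatures and the wild-type values were not, and the same held for its neighbour SPNCRNA.1256.

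Besides omt3, 14 members carried a name of their own in the annotation. Of these, 13 are prl RNAs, first found as poly(A)-bearing RNAs without a long reading frame, and SPNCRNA.1365 is the antisense RNA of cti6, a gene of a subunit of the Rpd3L histone deacetylase complex. SPNCRNA.1365 was at 7.20 and 9.07 CPM in lsd1-ΔHMG against 35.9 and 28.7 CPM in wild-type at 30°C, and at 7.84 and 7.47 CPM against 18.7 and 21.0 CPM at 37°C. The prl RNA with the most reads, prl20 (SPNCRNA.1649), which holds an annotated long terminal repeat, was at 18.8 and 23.8 CPM in lsd1-ΔHMG against 55.2 and 50.3 CPM in wild-type at 30°C and at 14.1 and 17.6 CPM against 40.8 and 44.9 CPM at 37°C. The annotation gives SPNCRNA.20 as an older name of prl20, and the table holds both as rows that moved as one. prl40 (SPNCRNA.40), annotated as small and specific to quiescence, was at 0.845 and 1.42 CPM in lsd1-ΔHMG against 5.66 and 5.97 CPM in wild-type at 30°C and at 0.906 and 1.42 CPM against 4.14 and 4.71 CPM at 37°C. In set1Δ prl40 had 9.17 and 10 CPM at 30°C and 7.35 and 7.93 CPM at 37°C, the highest levels of any strain. The remaining prl RNAs, prl4, prl13, prl21, prl24, prl33, prl34, prl35, prl38, prl45, prl47 and prl57, had log2 fold changes in lsd1-ΔHMG from -2.38 (prl57) to -1.22 (prl38) at 30°C and from -2.17 (prl47) to -1.25 (prl34) at 37°C.

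The set1Δ libraries at 37°C were not used to choose the members, although the wild-type libraries they are compared with were. In set1Δ at 37°C, 19 members (6.6%) were called higher and 52 (18.0%) lower than in wild-type, where 18.7% of all features tested were called higher and 5.53% lower. The members' median log2 fold change was -0.41 over the members, -0.05 over the other SPNCRNA rows and 0.01 over all features. Both set1Δ libraries were below both wild-type libraries in 181 members and above them in 66, and over all features tested these shares were 41.4% and 42.9%. Under the GC and length offsets 29 members were called higher and 34 lower, beside 13.0% and 10.1% of all features. The median was then -0.14 over the members and -0.05 over all features. The split between higher and lower calls in set1Δ at 37°C was thus nearer to even once the trends with base composition and length were taken out, while the 10 members named for this comparison kept their calls.

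SPNCRNA.1529, across from orc1, which encodes a subunit of the origin recognition complex, was the member most raised in set1Δ at 37°C. It was at 512 and 574 CPM in set1Δ against 35.7 and 38.6 CPM in wild-type (log2 fold change 3.87, SE 0.083, adjusted p = 1.4e-12, edgeR), while at 30°C it was at 21.9 and 21.9 CPM in set1Δ against 23.0 and 23.2 CPM in wild-type. The partner orc1 itself had a log2 fold change of 0.03 in set1Δ at 37°C (adjusted p = 0.71, edgeR). SPNCRNA.1473, across from spo14, rose to 118 and 142 CPM in set1Δ at 37°C, against 34.6 and 33.5 CPM in wild-type (1.93, SE 0.14). SPNCRNA.1364, across from htr11, rose to 118 and 134 CPM, against 32.4 and 41.5 CPM (1.77, SE 0.16). SPNCRNA.1621, across from the glucan synthase gene mok13, rose to 59.4 and 71.7 CPM, against 18.1 and 21.3 CPM (1.74, SE 0.16). Of the 19 members raised in set1Δ at 37°C, 10 were called lower in set1Δ at 30°C and 1 higher. The rule had capped the rise in set1Δ at 30°C, and the share of all features with these patterns was not counted.

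SPNCRNA.293, an RNA with no annotated overlap, was the member most lowered in set1Δ at 37°C. It was at 5.33 and 6.21 CPM in set1Δ against 71.8 and 70.9 CPM in wild-type (log2 fold change -3.62, SE 0.13, adjusted p = 9.3e-11, edgeR), and at 19.0 and 21.1 CPM against 177 and 157 CPM at 30°C. At 37°C its set1Δ libraries were also below those of lsd1-ΔHMG, at 19.5 and 22.9 CPM. SPNCRNA.1310 fell to 4.14 and 5.58 CPM in set1Δ at 37°C, against 22.9 and 23.8 CPM in wild-type (-2.26, SE 0.17), but at 30°C it was at 35.3 and 34.3 CPM in set1Δ against 12.4 and 14.6 CPM in wild-type. SPNCRNA.604 fell to 3.85 and 3.68 CPM at 37°C, against 17.0 and 15.9 CPM (-2.13, SE 0.16). SPNCRNA.278 was at 1.51 and 2.01 CPM against 6.31 and 6.68 CPM (-1.87, SE 0.23), and SPNCRNA.289 at 1.70 and 1.70 CPM against 5.33 and 6.21 CPM (-1.76, SE 0.18). Of the 52 members lowered in set1Δ at 37°C, 11 were also called lower at 30°C and 8 were called higher there, again without a share over all features.

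At 30°C, where the rule had capped the rise in set1Δ, 22 members were called higher and 72 lower in set1Δ than in wild-type, beside 21.1% and 11.6% of all features, which is a description. The median log2 fold change was -0.29 over the members and 0.22 over all features. The lowest member in set1Δ at 30°C was SPNCRNA.1256, at 0.267 and 0.362 CPM in set1Δ against 29.6 and 26.7 CPM in wild-type. The set1Δ libraries at 30°C had the lowest TMM factors, 0.763 and 0.754, and with scaling by library totals alone 15 members were called higher and 112 lower. That scaling moved the median of all features from 0.22 to -0.12. The members' median minus that of all features was -0.51 with either scaling. Scaling by a factor per library shifts all features of a comparison alike, so this difference stays the same by construction.

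**Figure D4:**
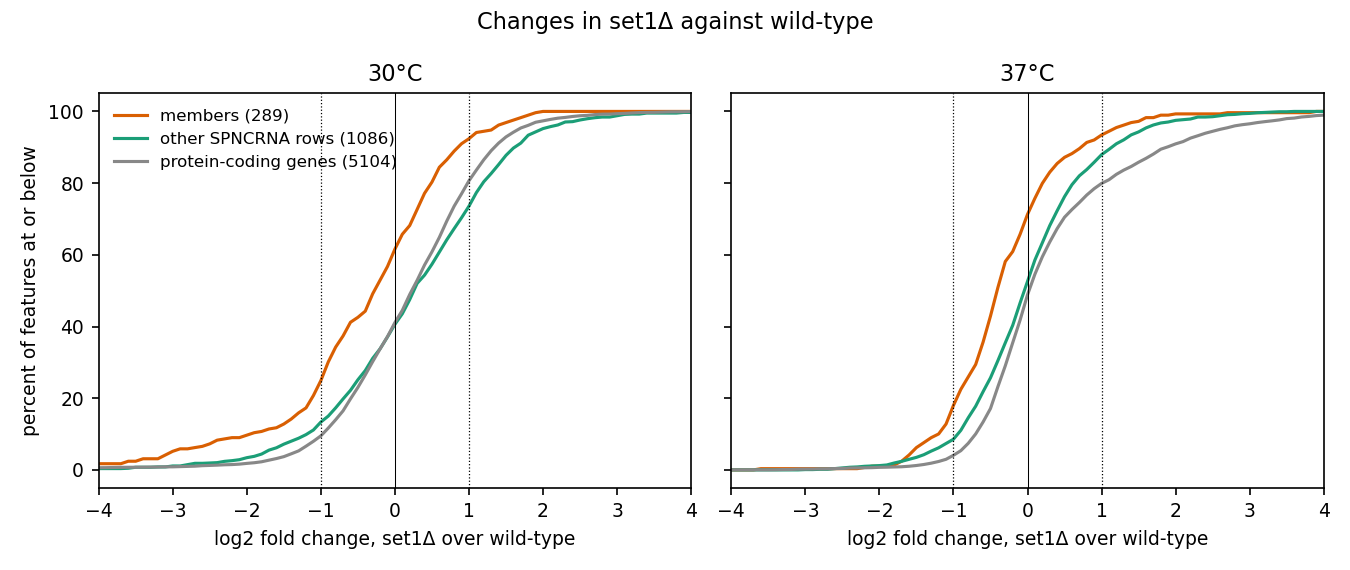
Cumulative share of features (percent at or below each value) by log2 fold change of set1Δ over wild-type at 30°C (left) and 37°C (right), for the 289 members, the 1086 other SPNCRNA rows and 5104 protein-coding genes. Dotted lines mark a log2 fold change of 1 in each direction. Over most of its range the members' curve runs to the left of the others at both temperatures, with medians of -0.29 at 30°C and -0.41 at 37°C.

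The rule set no condition on how a member differs between temperatures, although it used these libraries. In wild-type cells 27 members were higher and 53 lower at 37°C than at 30°C, beside 5.55% and 15.9% of all features, and scaling by library totals alone gave 49 and 39. In lsd1-ΔHMG 33 were higher and 25 lower, beside 4.48% and 10.5% of all features, and this split was 31 and 37 with DESeq2's size factors and 45 and 22 with the GC and length offsets. In set1Δ 55 were higher and 66 lower, beside 11.4% and 20.9% of all features (32.3% in either direction), and 83 and 38 with the offsets. Scaling by library totals gave 84 and 31 in set1Δ. The balance between higher and lower members thus turned with the scaling in each strain, while the members named below for a comparison kept their calls in it under these scalings.

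A small group was raised at 37°C whatever the strain: 13 members were called higher in all 3. The share of all features called higher in all 3 was not counted, so this is a description. SPNCRNA.820, across from the nuclear import receptor gene kap114, was at 22.1 and 30.8 CPM at 37°C against 2.59 and 3.24 CPM at 30°C in lsd1-ΔHMG (log2 fold change 3.18, SE 0.20), at 45.2 and 45.7 CPM against 2.09 and 1.90 CPM in set1Δ (4.51, SE 0.23), and at 48.4 and 61.7 CPM against 6.89 and 8.97 CPM in wild-type (2.79, SE 0.18). SPNCRNA.1419, across from saw1, was at 35.6 and 45.9 CPM at 37°C against 6.35 and 8.24 CPM at 30°C in lsd1-ΔHMG, at 140 and 126 CPM against 17.6 and 18.6 CPM in set1Δ, and at 116 and 139 CPM against 20.9 and 26.4 CPM in wild-type. SPNCRNA.529, across from dbl4, had 12.7 and 17.4 CPM at 37°C against 3.85 and 3.94 CPM at 30°C in lsd1-ΔHMG, 33.5 and 35.1 CPM against 1.60 and 1.86 CPM in set1Δ, and 45.2 and 49.8 CPM against 8.16 and 9.61 CPM in wild-type. In each of these RNAs the libraries at 37°C were above those at 30°C without overlap in each strain, and lsd1-ΔHMG stayed below wild-type at both temperatures. SPNCRNA.1676, divergent from lea1, SPNCRNA.1315, with no annotated overlap, and SPNCRNA.1108, across from mug135, were also higher in every strain, with log2 fold changes of 2.40, 2.36 and 1.79 in lsd1-ΔHMG and of 2.36, 2.17 and 2.48 in wild-type.

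The members that fell most at 37°C were other RNAs. SPNCRNA.1223, across from SPCC191.10, was at 1.84 and 3.09 CPM at 37°C against 9.09 and 9.07 CPM at 30°C in lsd1-ΔHMG (log2 fold change -1.88, SE 0.19), at 2.95 and 2.66 CPM against 14.6 and 17.2 CPM in set1Δ, and at 6.92 and 6.30 CPM against 189 and 160 CPM in wild-type (-4.72, SE 0.17, adjusted p = 1e-10, edgeR). SPNCRNA.1670 was at 3.81 and 4.90 CPM at 37°C against 45.4 and 41.1 CPM at 30°C in wild-type. SPNCRNA.428, which moved as one with SPNCRNA.1631, was at 18.0 and 22.4 CPM at 37°C against 180 and 183 CPM at 30°C in wild-type. SPNCRNA.70 was lower at 37°C in all 3 strains, at 0.533 and 0.547 CPM against 2.51 and 2.81 CPM in lsd1-ΔHMG, and 9 members shared that course. The share of all features with that course was not counted either. SPNCRNA.1120 fell to 4.21 and 6.13 CPM at 37°C, against 18.7 and 22.3 CPM at 30°C, in lsd1-ΔHMG. In set1Δ the largest falls were in SPNCRNA.1695, at 3.24 and 3.51 CPM at 37°C against 70.8 and 84.7 CPM at 30°C (-4.52, SE 0.15), SPNCRNA.451, at 10.5 and 9.18 CPM against 141 and 149 CPM, prl57 (SPNCRNA.57), at 1.73 and 2.21 CPM against 18.0 and 18.0 CPM, and SPNCRNA.1309, at 6.81 and 8.59 CPM against 65.6 and 69.1 CPM.

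For SPNCRNA.1695 and SPNCRNA.1309 the gene on the other strand moved the same way in set1Δ. fub2, the partner of SPNCRNA.1695, had a log2 fold change between temperatures of -6.67 in set1Δ, and alr2, the alanine racemase gene across from SPNCRNA.1309, of -3.71. The libraries were made with a strand-specific protocol, but the strand setting of the counting was not given in the sources used here. Features with an overlap on the other strand only had 77.6% of their values not whole, against 79.9% in features without overlap and 83.9% in those with an overlap on the same strand, where a read can be divided between features.

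The difference between the temperature changes of lsd1-ΔHMG and wild-type is built from the same libraries and the same ratios that chose the members, so its calls are given as a description. It was called above 0 in 36 members (12.5%) and below 0 in 10 (3.5%), beside 12% and 6.42% of all features tested, so the share above 0 was near that of all features, and in the other SPNCRNA rows 132 were above and 174 below. Above 0 means that lsd1-ΔHMG fell less below wild-type at 37°C than at 30°C. Of the 36, wild-type was called lower at 37°C in 23 and lsd1-ΔHMG higher in 8. The largest differences were in SPNCRNA.549 and SPNCRNA.1223, with the values given above, and next SPNCRNA.1256 and SPNCRNA.1631. SPNCRNA.1631 was at 6.70 and 10.4 CPM in lsd1-ΔHMG against 176 and 178 CPM in wild-type at 30°C, and at 2.98 and 4.82 CPM against 12.1 and 16.1 CPM at 37°C. hsp16 moved with this pattern, being highest in wild-type at 30°C, with a difference of its own of 3.90 (SE 0.24), and its part was not tested. Below 0 the largest difference was in SPNCRNA.296, at 1.08 and 1.26 CPM in lsd1-ΔHMG against 4.39 and 4.47 CPM in wild-type at 30°C and 0.133 and 0.438 CPM against 3.09 and 4.18 CPM at 37°C (log2 difference -1.73, SE 0.53). Without replicate 1 of lsd1-ΔHMG at 37°C the difference of SPNCRNA.296 was -1.11 and no longer called.

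**Figure D5:**
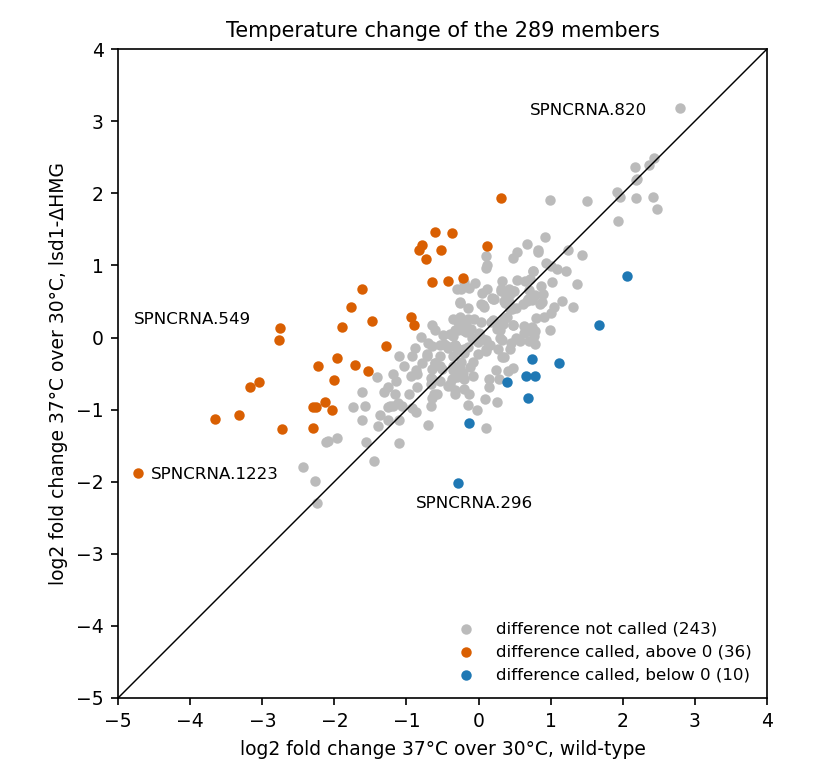
Log2 fold change of 37°C over 30°C in lsd1-ΔHMG (vertical axis) against that in wild-type (horizontal axis) for the 289 members, a point each, with the diagonal of equal change. Orange and blue points are the 36 and 10 members whose difference was called above and below 0. SPNCRNA.1223 is at -1.88 in lsd1-ΔHMG and -4.72 in wild-type, and SPNCRNA.820 is near the diagonal at 3.18 and 2.79.

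Antisense RNAs can hold back the gene they lie across, so the partners of the 136 antisense members were followed. In lsd1-ΔHMG 24 partners were called higher at both temperatures (17.6%) and 5 lower (3.7%), against 24.9% and 4.3% of all protein-coding genes. The partners' share of higher genes was thus not above that of all protein-coding genes. Of the 67 genes beside divergent members 21 were higher at both temperatures (31.3%) and 4 lower (6.0%), both shares above those of all protein-coding genes, with no test of the difference. The partners of the other antisense SPNCRNA rows were higher at both temperatures in 155 of 667 (23.2%), and the genes beside other divergent rows in 68 of 144 (47.2%). With GC and length offsets 11 partners were higher and 13 lower, and with TMM factors from protein-coding genes alone 21 and 17, so the balance of their directions moved with the scaling. The share of all protein-coding genes under these scalings was not counted. The protein-coding factors also moved the median of all features, from -0.11 to -0.29 at 30°C and from -0.06 to -0.31 at 37°C.

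Some partners none the less changed a great deal. pfl4 (SPCC188.09c), a flocculin gene across from SPNCRNA.1201, was at 283 ± 4.68 CPM in lsd1-ΔHMG and 9.20 ± 0.633 CPM in wild-type at 30°C, and at 112 ± 7.34 and 9.22 ± 0.762 CPM at 37°C (SD, n = 2). lat1, a subunit of the pyruvate dehydrogenase complex, across from SPNCRNA.1123, was at 232 ± 4.5 CPM in lsd1-ΔHMG and 38.1 ± 3.39 CPM in wild-type at 30°C. cti6, across from SPNCRNA.1365, was at 47.0 ± 3.87 CPM in lsd1-ΔHMG and 8.66 ± 0.0837 CPM in wild-type at 30°C, and at 52.1 ± 10.6 and 3.37 ± 0.797 CPM at 37°C. eca39, across from SPNCRNA.1358, was at 581 ± 14.1 CPM in lsd1-ΔHMG and 144 ± 13.5 CPM in wild-type at 30°C. osh6, for an oxysterol-binding protein, mug182 and cdc15, for an F-BAR protein of the division ring, had log2 fold changes of 1.96, 2.37 and 2.29 at 30°C and of 3.45, 2.73 and 2.78 at 37°C. With the offsets the 30°C values of eca39 and osh6 were 0.82 and 0.57, under the limit for a call, and lat1, cdc15, cti6, mug182 and pfl4 stayed above it. alr2, across from SPNCRNA.1309, went with its antisense RNA, at 2.97 ± 0.368 CPM in lsd1-ΔHMG and 20.1 ± 1.14 CPM in wild-type at 30°C.

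Genes that act on non-coding RNAs were also looked at in lsd1-ΔHMG. Among 20 genes of the nuclear exosome and its cofactors 1 was higher and 4 were lower at 30°C, and 4 were higher and 4 lower at 37°C, where 24.4% of all features were called higher and 18.1% lower at 30°C and 25.4% and 15.4% at 37°C. With the GC and length offsets 0 were higher and 5 lower at each temperature. The core subunit genes rrp4 (log2 fold changes -1.28 at 30°C and -1.06 at 37°C) and rrp45 (-1.56 and -1.16) were lower at both temperatures and stayed so with the offsets. red1, for a zinc-finger protein that brings meiotic RNAs to the exosome, was higher at both (1.09 and 1.67) but not with the offsets (0.54 and 0.81). Of 5 genes of 5′ to 3′ decay 2 were higher and 0 lower at 30°C, and 1 was higher and 1 lower at 37°C. Among them exo2, the cytoplasmic 5′ exonuclease, was higher at both (2.31 and 3.53), also with the offsets. dcp1 was lower at 37°C (-1.18) but was not called with the offsets (-0.17), where 1 gene of this list was higher and 0 lower at each temperature. Of 7 RNAi genes 1 was higher at 30°C and 3 at 37°C with none lower. dcr1, for Dicer, was higher at both (1.58 and 2.23). Of 14 chromatin factors that restrict antisense transcription 5 were higher at 30°C and 4 at 37°C with none lower, and with the offsets 1 was higher and 2 lower at 30°C and 2 were higher and 3 lower at 37°C. Those higher at both were pst2, hip1, spt6 and spt16, and none of the 4 kept both calls with the offsets. Of the 4 genes of the Lsd1/2 complex, phf1 (2.95 and 3.74) and phf2 (2.25 and 3.0) were higher at both, also with the offsets.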

How the data were processed

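Strand-specific mRNA libraries of 12 cultures were sequenced by the authors, who per the labels trimmed reads with Trimmomatic 0.39, aligned them with STAR (to ASM294v2, per the study's methods) and counted with featureCounts by fraction. The deposited values are expected counts per feature, without normalization, and were rounded to whole counts before testing. The table has 34 value columns, of which 22 were not used. Names, strand, overlap, length and GC content came from RefSeq's ASM294v3 annotation, matched by identifier for 6846 rows (94.2%). Because the builds differ, no coordinates or sequences are given.

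One edgeR 4.0.16 fit (R 4.3.3, TMM, filterByExpr, robust quasi-likelihood, a mean per condition) covered all 12 libraries and 8 comparisons, with Benjamini-Hochberg adjustment over 6904 features. The study used limma-voom, which was an alternative here (limma 3.58.1), as were DESeq2 1.42.0, other scalings, filters and limits, a replicate block, offsets for each library's spline trend with GC content and length (features without a position were given the median), and leaving out each library. Scaling by library totals was added after the data were seen. The script was tested on simulated data. Tables and plots used python 3.11.15, pandas 2.3.3, numpy 2.4.6 and matplotlib 3.10.9.

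The members, gene lists, alternatives and the rule for named genes were chosen with earlier results of these data known. Named are lsd1, lsd2 and set1, the 8 members with most reads in wild-type, the 6 steepest summed falls, the 5 largest calls each way in set1Δ at 37°C, the 4 largest each way in each temperature comparison and in their difference, members with a gene name, rows at the threshold, partner genes (8 by size of change) and listed genes called at both temperatures. hsp16, pss1, mas5, SPNCRNA.20 and the set1Δ values at 30°C given beside them were chosen after their values were seen. With 2 replicates per condition, p-values rest on a spread shared over conditions and features, and counts at low level carry counting error.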

Additional observations from a re-analysis of the deposited data

Results flagged for a closer look

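The change of lsd1-ΔHMG against wild-type differed between 37°C and 30°C in 46 members (edgeR's quasi-likelihood fit, Benjamini-Hochberg adjusted over all features), 36 above and 10 below 0. Over all features tested 18.5% were called, 12% above and 6.42% below 0, so the members' count was near that of features at large. The difference uses the ratios that chose the members and the temperature labels of wild-type, which are in doubt, and is a description. The largest log2 differences above 0 were 2.89 in SPNCRNA.549 (SE 0.31), 2.84 in SPNCRNA.1223 (SE 0.26), 2.73 in SPNCRNA.1256 (SE 0.35) and 2.53 in SPNCRNA.1631 (SE 0.30). SPNCRNA.549 and SPNCRNA.1256 moved as one and may be a single RNA. The largest below 0 were -1.73 in SPNCRNA.296 (SE 0.53), -1.53 in SPNCRNA.437 (SE 0.35), -1.49 in SPNCRNA.604 (SE 0.25) and -1.48 in SPNCRNA.256 (SE 0.24).

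SPNCRNA.437, divergent from vps20, was at 4.02 and 7.61 CPM in lsd1-ΔHMG against 13.7 and 15.2 CPM in wild-type at 30°C, and at 2.61 and 3.83 CPM against 21.5 and 25.2 CPM at 37°C. SPNCRNA.256 was at 1.28 and 1.36 CPM in lsd1-ΔHMG against 6.96 and 7.02 CPM in wild-type at 30°C, and at 0.959 and 1.09 CPM against 14.6 and 15.9 CPM at 37°C. In both RNAs wild-type was higher at 37°C and the lsd1-ΔHMG means were lower.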

How the results depend on the processing

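With GC and length offsets the members called in lsd1-ΔHMG numbered 168 at 30°C and 126 at 37°C, and the 37°C log2 fold change turned to 0.23 in prl34, 0.10 in SPNCRNA.451 and 0.13 in SPNCRNA.70. Of the listed genes, dhp1 turned to -0.01 at 30°C and ago1 to -0.34 at 37°C. With a log2 limit of 2 the counts were 87 and 69 in lsd1-ΔHMG at 30°C and 37°C, 28 and 5 in set1Δ, 9, 43 and 29 between temperatures in lsd1-ΔHMG, set1Δ and wild-type, and 13 for the difference. With no fold limit they were 216 and 207 in set1Δ at 30°C and 37°C, 183, 232 and 207 between temperatures in lsd1-ΔHMG, set1Δ and wild-type, and 111 for the difference. The cause of these moves beyond the limits themselves was not tested. No share over all features stands beside the counts at other limits, so they are descriptions. In set1Δ 5630 and 5006 of the 6904 features had an unadjusted p under 0.05 (edgeR) at 30°C and 37°C, beside 222 and 214 members. Leaving out each library in turn gave 276 to 289 and 241 to 281 in lsd1-ΔHMG, 82 to 98 and 62 to 73 in set1Δ, 57 to 66, 118 to 133 and 74 to 85 between temperatures, and 42 to 52 for the difference. Of 8668 values of single named genes under the alternatives, 8385 kept direction and call, 278 lost the call and 5 turned.

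Libraries with the same replicate number did not deviate together in every pair of compared groups (correlations from -0.021 to 0.333). This does not settle whether the numbers pair the samples, and the main fit held no replicate block. A fit with replicate block called 289 and 262 members in lsd1-ΔHMG, 95 and 71 in set1Δ, 59, 120 and 79 between temperatures, and 46 for the difference, and changed no call of a named gene.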
